A study of Mus musculus with 6 samples.

Results

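The genes described here are 32 genes of the p53 response, matched to the array by gene name: the transcription factor p53 itself (gene Trp53), its regulators, and genes that p53 is known to switch on. They were represented by 40 probes out of 55681 on the array, and by 32 out of 34650 gene names. Their levels come from 6 microarrays of sorted marrow cells of C57BL/6 mice: 3 wild-type arrays (WT) and 3 of Spred1 knockouts (KO), the gene whose protein dampens the Ras-ERK cascade. The sort took lineage-negative cells with c-Kit and Sca-1 but without CD48 at the surface, which selects stem cells and the earliest progenitors of blood. The age of the mice, and whether the 3 samples of a genotype came from separate animals, were not stated in the labels. The p-values thus refer only to spread among arrays, some of which can be technical.

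The p53 protein is kept low in unstressed cells by the ubiquitin ligase Mdm2, with its partner Mdm4, and is stabilised when DNA is damaged or when an oncogene is overactive. It then binds a response element in its target genes. Some targets stop the cell cycle, some kill the cell, some repair DNA, and some, Mdm2 first among them, shut p53 down again. In haematopoietic stem cells p53 is known to restrain proliferation and to govern survival after irradiation. The 32 genes were ordered into these roles: 5 of feedback and control, 10 of arrest and growth control, 12 of death and 5 of repair.

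Values are log2 intensities relative to the 75th percentile of probes on the same array, so that a value of 0 equals that percentile. Levels of different genes cannot be set against each other on this scale, because each probe has its own brightness. Differences are KO minus WT, with the standard error (SE) of a limma fit across 19611 features. Adjusted p-values (Benjamini-Hochberg) take in all of those features, or all 27809 probes where a single probe is described, with a threshold of 0.05.

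Kit, Ly6a (Sca-1) and Cd48, the genes of the sort, were well above background on all 6 arrays. Cd48 was among them although the cells were sorted as negative for its protein. The marker genes Ptprc, Cd34 and Slamf1, which the described sort did not use, were so as well. The 3 Spred1 probes, all on chromosome 2 (mm9), gave unlike values. The probe at 116998491 stood 5.44-fold higher in KO (limma adjusted p = 0.012 over all probes), that at 117005906 stood at 50.7% of WT (limma adjusted p = 0.0591) and that at 117004952 at 90.9%. Because the labels do not say which exons the knockout lacks, these probes do not check the labels. WT replicate 1 stood apart from the other arrays: the summed signal of 10 neutrophil markers, in units of the 75th percentile, was 106.7 on it, and from 373 to 483 on the KO arrays. The highest WT array reached 580. Among the markers of cell types, Flt3 (134% of WT), Siglech (122%), Emr1 (170%) and Gp1bb (126%) had higher values in KO at an unadjusted limma p under 0.05. Slamf1 (67.7%) and Vwf (80.8%) had lower ones. None of these markers passed (limma adjusted p from 0.366 to 0.401). Tested were 10 neutrophil, 10 monocyte and macrophage, 3 B cell and 5 T and NK cell markers. Also tested were 6 erythroid, 6 megakaryocyte and 4 dendritic cell markers, and the 6 genes from Kit to Slamf1 named above. Over all features, 12.2% had an unadjusted limma p under 0.05, so these names are not read as shifts of cell types. Replicates 1 and 2 of each genotype lay on slide 1, and both replicates 3 on slide 2. Fewer cells of a type and less RNA per cell cannot be told apart in such bulk samples.

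In the letters used here, R is A or G, W is A or T and Y is C or T. The element that p53 binds is a repeat of a motif of 10 bases, RRRCWWGYYY, whose core reads CWWG. It was searched in RefSeq promoter windows (build GRCm38.p6) that run from 250 bases before an annotated start to 50 bases after it. A match was a pair of adjoining motifs, together 20 bases, with every core C and G in place and at most 3 mismatches to the p53 response element consensus. The consensus is its own reverse complement, so both strands were covered. Such a match stood in 1.38% of all 32851 windows. By gene, it stood in at least 1 window of 1.63% of all 27025 genes, and of 7 of the 24 p53 genes that have a window. Windows were not found for Zmat3, Pmaip1, Tnfrsf10b, Perp, Trp53inp1, Rrm2b, Ddb2 and Xpc. A match describes letters only and does not show binding in these cells. The members were chosen as p53 targets, so nothing is read from the excess. The following 5 show what the element looks like in a feedback gene, in a pair of cell cycle genes and in a pair of death genes, with the matched bases in capitals and 5 flanking bases on either side.
Ccng1: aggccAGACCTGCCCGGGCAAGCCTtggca
Gtse1: accggGAGCAAGTTGGGGCTTGCCTctgac
Ckap2: tctgaAGACATGTCCTGACTTGTCAagcct
Bbc3: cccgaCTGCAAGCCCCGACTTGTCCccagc
Aen: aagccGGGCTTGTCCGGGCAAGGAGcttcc

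The matches of Ccng1 (chr11:40755462-40755481, minus strand) and Gtse1 (chr15:85859945-85859964, plus strand) had 1 mismatch, and that of Ckap2 (chr8:22186003-22186022, minus strand) had 2. Those of Bbc3 (chr7:16309486-16309505, plus strand) and Aen (chr7:78895937-78895956, plus strand) had 3, as did matches in the windows of Sesn1 and Trp53. The match began 195 bases before the annotated start of Ccng1, 203 before that of Ckap2, 97 before a start of Bbc3 and 121 before a start of Aen. In KO against WT these 5 genes differed by -0.27 (Ccng1), 0.04 (Gtse1), -0.22 (Ckap2), -0.09 (Bbc3) and -0.11 (Aen) on the log2 scale, none past the threshold. Sesn1 differed by 0.19 and Trp53 by -0.03.

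Transcripts of most of the p53 genes were detected in these cells, and none of these genes passed the test between genotypes. Of the 32 genes, 30 were well above background on all 6 arrays. By spot, 52.3% to 53.4% of an array was well above background. Whether p53 drives these transcripts was not tested. Dram1, an autophagy regulator, and Eda2r, a receptor of the TNF receptor family, were not well above background on any array. Because no measured gene entered through 1 genotype alone, the filter on dim probes did not select for a difference. Of the 30 genes, 0 passed the adjusted threshold (limma, adjusted p from 0.358 to 0.980), where 0.0204% of all features did. Of the 36 probes that could be tested, 0 passed over all probes, where 0.0324% did. By probe, 2 (those of Zmat3 and Gdf15) had an unadjusted limma p under 0.05, against 11.4% of all probes. At an unadjusted limma p under 0.05 there were 4 genes, all with lower values in KO, which is 13.3% of the 30 against 12.2% of all features. These were Zmat3, Gdf15, Gadd45a and Ei24. With higher values in KO there were 0, against 7.19% of all features, and the 4 with lower values compare with 5.0% of all features in that direction. The KO arrays lay wholly above or below the WT arrays for 4 genes, 13.3% again, where 19.4% of all features did. They lay above for 1 (Plk2; 9.76% of all features) and below for 3 (Ccng1, Gadd45a and Zmat3; 9.67%). A difference over 1.5-fold was measured for 1 gene, Gdf15, against 3.39% of all features. Taken in both directions, these shares lie near or below the background, while the share with lower values at an unadjusted p lies above its own. The background also holds features that passed the filter through 1 genotype alone, which none of the 30 genes did, so the sets are not fully alike. The unadjusted count itself was 1 without KO replicate 1 and 1 without KO replicate 3 (Zmat3 each time) and 2 without WT replicate 2 (Zmat3 and Ckap2). Without WT replicate 1 it was 4, with Sesn1, at higher values in KO, in the place of Ei24. The share of all features also depends on the arrays used and is not given for these settings. A change in the count is therefore not read as particular to the p53 genes.

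**Figure D1:**
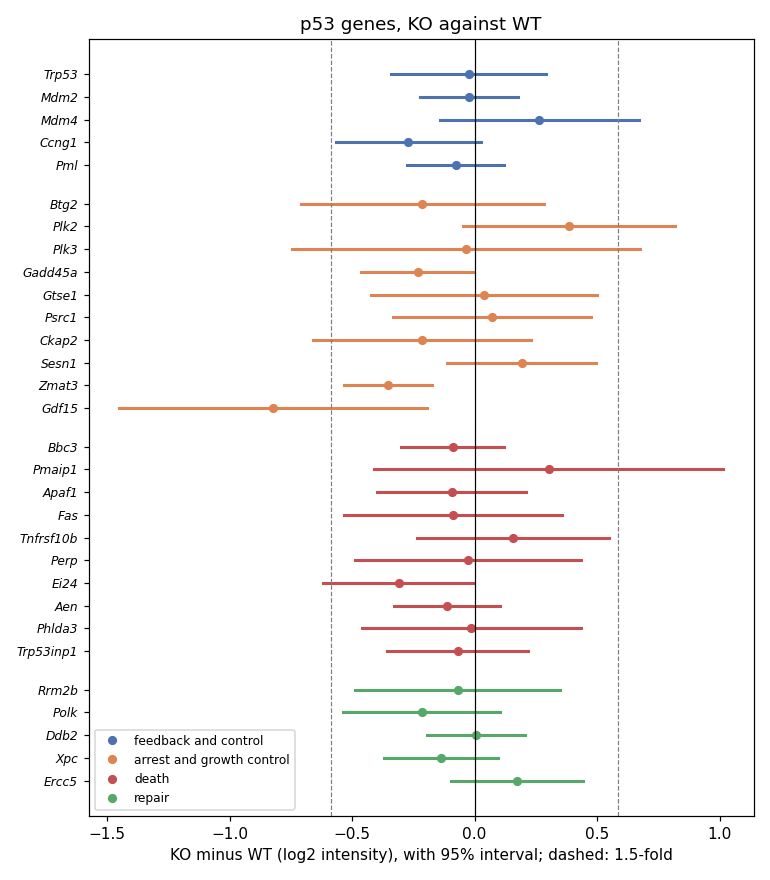
Difference in log2 intensity between KO and WT for the 30 measured p53 genes, grouped by role. Points are the limma estimates with 3 arrays per genotype, bars are 95% intervals of single genes, and the dashed lines mark 1.5-fold in either direction; 22 of the 30 bars lie wholly between those lines, and Gdf15 and Pmaip1 have bars that reach past 2-fold.

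Most of these genes had narrow intervals, which like the p-values refer only to spread among arrays. For 22 of the 30 genes the 95% interval of the difference lay within 1.5-fold in either direction, and for 28 it lay within 2-fold. These intervals are of single genes, with no adjustment for their number. The other 2 were Gdf15 and Pmaip1. By role, the interval lay within 1.5-fold for 4 of 5 feedback genes, 5 of 10 arrest genes, 8 of 10 death genes and 5 of 5 repair genes. Of the 30 differences, 21 were below 0 and 9 above, where 10016 of 19611 were below 0 over all features. The median difference was -0.07 over the 30 genes, against -0.01 over all features. It was -0.03 for feedback genes, -0.13 for arrest genes, -0.08 for death genes and -0.07 for repair genes. Within a genotype the role's array medians had an SD of 0.024 for feedback, 0.047 for arrest, 0.10 for death and 0.086 for repair genes. That SD is not the error of a median difference, and the medians were not tested. The median of the arrest genes turned to 0.02 without KO replicate 1, and was -0.20 without KO replicate 2. Without WT replicate 1 the median over the 30 genes was -0.08.

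Among the genes of feedback and control, Trp53 itself measured 0.11, -0.13 and 0.22 on the WT arrays and 0.11, -0.15 and 0.17 on the KO arrays. In both genotypes replicate 2 was the lowest array and replicate 3 the highest, and the genotypes overlapped. The difference was -0.03 ± 0.13 SE (limma adjusted p = 0.946), with an interval from 0.789-fold to 1.22-fold. The activity of p53 is set mainly through the stability of its protein, which these arrays do not measure.

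Mdm2, the ligase that degrades p53 and its best known feedback target, measured 4.32, 4.39 and 4.34 in WT and 4.33, 4.41 and 4.24 in KO. The groups overlapped and the difference was -0.02 ± 0.08 SE (limma adjusted p = 0.923), which leaves an interval from 0.858-fold to 1.13-fold. Mdm4, the partner that blocks p53 without degrading it, measured 1.08, 1.40 and 1.63 in WT and 1.82, 1.40 and 1.69 in KO. KO replicates 1 and 3 lay above every WT array and KO replicate 2 did not, and the difference of 0.26 ± 0.17 SE did not pass (limma adjusted p = 0.534). A separate Mdm4 probe gave 0.16 ± 0.15 SE (limma adjusted p = 0.660 over all probes).

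Ccng1 encodes cyclin G1, which recruits a phosphatase to Mdm2. Its values were 1.80, 1.65 and 1.73 in WT and 1.52, 1.63 and 1.22 in KO. Every KO array lay below every WT array, by a narrow margin for KO replicate 2. The difference was -0.27 ± 0.12 SE and did not pass (limma adjusted p = 0.433; exact two-sided permutation p = 0.1, the smallest that 3 against 3 arrays allow). It was -0.15 within slide 1 and -0.52 within slide 2, where there is 1 array per genotype. Pml, the organiser of nuclear bodies that take up p53, differed by -0.08 ± 0.08 SE on its tested probe and by -0.09 ± 0.09 SE on the other.

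Among the genes of arrest and growth control lay 3 of the 4 genes with an unadjusted p under 0.05. Zmat3 encodes a zinc finger protein that binds RNA and is a direct p53 target. Its probe (chromosome 3, 32233831 to 32233890, mm9) measured -1.01, -1.0 and -1.07 in WT and -1.39, -1.36 and -1.40 in KO. The arrays of each genotype lay close together and the genotypes were well apart, so that KO stood at 78.2% of WT. The difference was -0.35 ± 0.08 SE (limma unadjusted p = 0.00238, adjusted p = 0.358; exact two-sided permutation p = 0.1). It was -0.37 within slide 1 and -0.33 within slide 2. The unadjusted p stayed under 0.05 in each of the 15 alternative fits, from 0.00109 to 0.0231, and the adjusted p lay from 0.258 to 0.816.

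Gdf15, a secreted stress cytokine of the TGF-beta family, had the largest difference of the 30 genes. It measured -0.47, 0.14 and -0.01 in WT and -1.09, -0.41 and -1.32 in KO. KO replicates 1 and 3 lay below every WT array, and KO replicate 2 lay above WT replicate 1. The difference was -0.82 ± 0.26 SE, or 56.5% of WT (limma unadjusted p = 0.0176, adjusted p = 0.376; exact two-sided permutation p = 0.2). Slide 1 alone gave -0.58 and slide 2 alone -1.31, and leaving out KO replicate 3 gave -0.63. Gdf15 is also induced by p53-independent stress pathways.

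**Figure D2:**
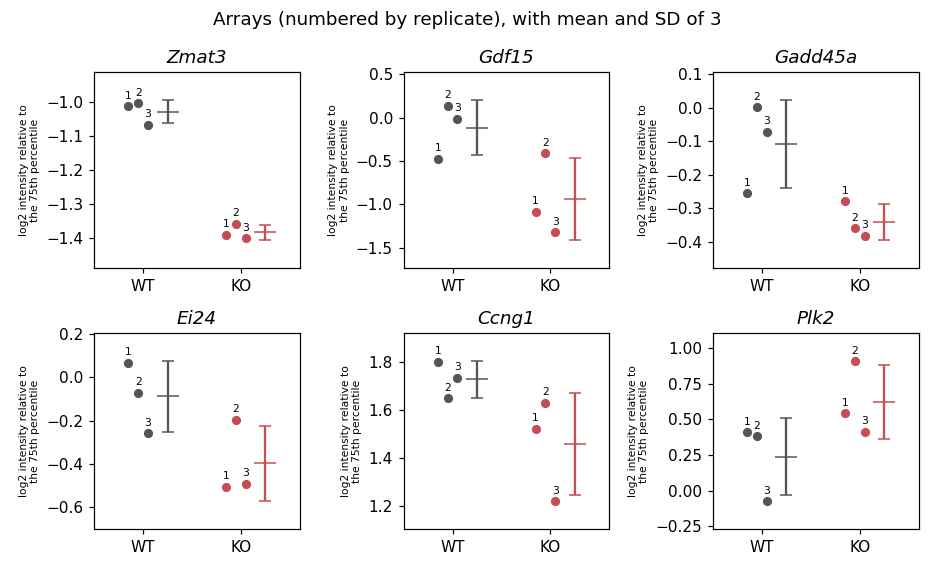
Log2 intensity on each array, relative to the 75th percentile, for the 4 p53 genes with an unadjusted p under 0.05 (Zmat3, Gdf15, Gadd45a, Ei24) and the other 2 whose genotypes did not overlap (Ccng1, Plk2). Points are arrays numbered by replicate, with the mean and SD of 3 beside them; the axes differ between panels, and the Zmat3 arrays lie close together within each genotype, between -1.07 and -1.0 in WT and between -1.40 and -1.36 in KO.

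Gadd45a, a small acidic protein that holds cells at the G2 checkpoint and takes part in repair, measured -0.26, 0.00 and -0.07 in WT and -0.28, -0.36 and -0.38 in KO. The KO arrays lay below the WT arrays, with WT replicate 1 just above the highest of them. The difference was -0.23 ± 0.10 SE (limma unadjusted p = 0.0490, adjusted p = 0.410). It was -0.19 within slide 1 and -0.31 within slide 2. Plk2, a polo-like kinase of the stress response, was the only one of the 30 genes with every KO array above every WT array. It measured 0.41, 0.38 and -0.08 in WT and 0.54, 0.91 and 0.41 in KO, so that KO replicate 3 and WT replicate 1 nearly touched. The difference was 0.38 ± 0.18 SE (limma unadjusted p = 0.0739, adjusted p = 0.443).

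The other arrest genes overlapped between genotypes. Sesn1, a sestrin that inhibits mTORC1, differed by 0.19 ± 0.13 SE. The antiproliferative gene Btg2 differed by -0.21 ± 0.21 SE. The kinase gene Plk3 differed by -0.04 ± 0.30 SE, with the widest interval among the arrest genes. Gtse1, Psrc1 and Ckap2, whose products act on microtubules in dividing cells, differed by 0.04 ± 0.19, 0.07 ± 0.17 and -0.22 ± 0.19 SE. Adjusted p from the limma fit lay between 0.542 and 0.965 for these 6 genes.

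Among the death genes, the BH3-only genes Bbc3 (Puma) and Pmaip1 (Noxa), which trigger the mitochondrial pathway, differed in the width of their intervals. Bbc3 measured 1.85, 1.79 and 1.83 in WT and 1.63, 1.85 and 1.72 in KO. The groups overlapped, and the difference of -0.09 ± 0.09 SE (limma adjusted p = 0.674) had an interval from 0.813-fold to 1.09-fold. Pmaip1 measured -1.94, -1.36 and -1.86 in WT and -1.77, -0.75 and -1.72 in KO. Replicate 2 was far above the others in both genotypes, the difference was 0.30 ± 0.30 SE (limma adjusted p = 0.679), and its interval ran from 0.752-fold to 2.02-fold. Without KO replicate 2 it was -0.03.

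Ei24, a gene of an endoplasmic reticulum membrane protein induced by etoposide, measured 0.07, -0.07 and -0.26 in WT and -0.50, -0.20 and -0.49 in KO. KO replicates 1 and 3 lay below every WT array and KO replicate 2 lay above WT replicate 3. The difference was -0.31 ± 0.13 SE (limma unadjusted p = 0.0484, adjusted p = 0.410), and it was -0.35 within slide 1 and -0.23 within slide 2. Without WT replicate 1 it was -0.23, with an unadjusted limma p of 0.142.

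The remaining death genes overlapped between genotypes. The death receptor genes Fas and Tnfrsf10b differed by -0.09 ± 0.19 and 0.16 ± 0.16 SE. Apaf1, the scaffold of the apoptosome, differed by -0.09 ± 0.13 SE, and Perp, a membrane effector of p53, by -0.03 ± 0.19 SE. Phlda3, an inhibitor of Akt, differed by -0.01 ± 0.19 SE, and the autophagy and death gene Trp53inp1 by -0.07 ± 0.12 SE. Aen, an apoptosis-enhancing nuclease, differed by -0.11 ± 0.09 SE on its tested probe and by -0.09 ± 0.10 SE on the other, which shares 50 of its 60 bases and is not an independent measurement. Limma adjusted p lay between 0.605 and 0.980 for these 7 genes.

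The repair genes held no unadjusted p under 0.05. Ddb2, which recognises ultraviolet lesions, measured 1.38, 1.44 and 1.52 in WT and 1.38, 1.49 and 1.49 in KO. With a difference of 0.01 ± 0.08 SE (limma adjusted p = 0.980), its interval ran from 0.875-fold to 1.15-fold. Xpc, the other lesion sensor of nucleotide excision repair, differed by -0.14 ± 0.10 SE, and the excision nuclease gene Ercc5 by 0.17 ± 0.11 SE. Rrm2b, the p53-inducible subunit of ribonucleotide reductase, differed by -0.07 ± 0.18 SE. The signal of its other probe did not clear background on the arrays.

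Polk encodes a translesion DNA polymerase and was read by a pair of probes that lie apart in the gene. The probe with the higher mean differed by -0.22 ± 0.14 SE and the other by 0.13 ± 0.15 SE (limma adjusted p = 0.550 and 0.722 over all probes). Neither passed. The first measured -0.30, -0.56 and -0.77 in WT and -0.75, -0.67 and -0.86 in KO, and the second -2.08, -1.98 and -2.50 in WT and -1.99, -2.06 and -2.10 in KO, so that the genotypes overlapped on both. Both probes are on chromosome 13 (mm9), at 97251653 to 97251712 and at 97256835 to 97256894, on the minus strand. Their sequences are shown to let the probes that gave opposite signs be located in the transcript.
Polk probe with the higher mean: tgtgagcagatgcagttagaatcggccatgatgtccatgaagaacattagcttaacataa
Polk probe with the lower mean: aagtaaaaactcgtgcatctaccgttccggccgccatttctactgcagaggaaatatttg

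Of the 6 genes with a pair of probes that could be tested, 4 had the same sign on both (Mdm4, Pml, Aen and Ercc5), and Polk and Trp53inp1 did not. The second Trp53inp1 probe measured 0.06 ± 0.14 SE.

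**Figure D3:**
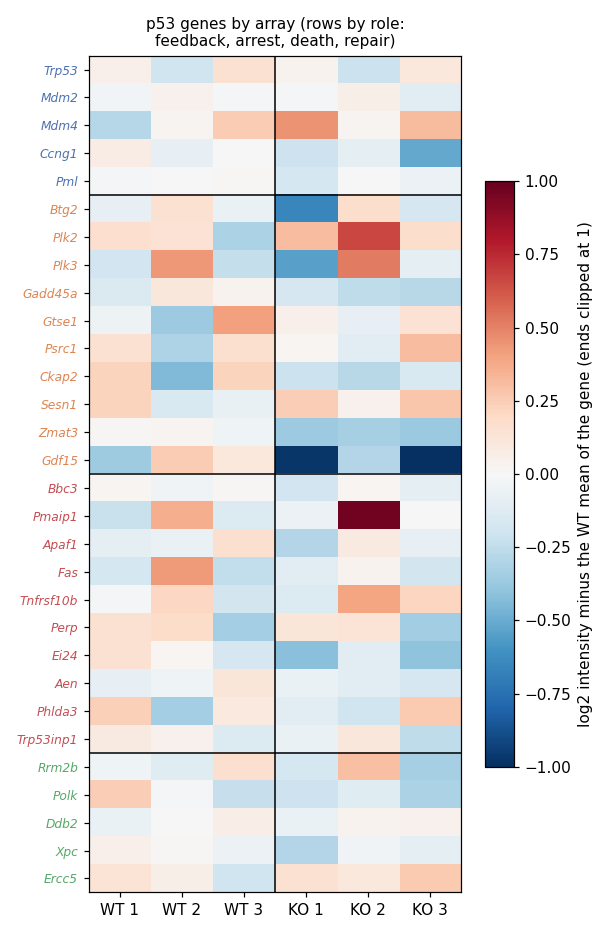
Log2 intensity of the 30 measured p53 genes on each array, minus the mean of the 3 WT arrays of the gene, with rows grouped by role and colours clipped at 1 in either direction. The Zmat3 row is evenly lower on all 3 KO arrays, and the rows of Btg2, Plk3 and Pmaip1 are higher on replicate 2 than on replicates 1 and 3 in both genotypes.

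For 14 of the 30 genes the genotypes differed by less than the SE, and part of the variation between arrays had a shared order. The SD within a genotype ran from 0.013 to 0.57 over the 30 genes, with a median of 0.18. In both genotypes replicate 2 was the highest array for 9 of the 30 genes (Mdm2, Btg2, Plk3, Zmat3, Gdf15, Pmaip1, Fas, Tnfrsf10b and Perp), which is 30.0%, against 11.0% of all features. This order was looked for after the values had been seen. The immediate early genes, such as Fos, Jun and Egr1, which respond within minutes to growth factors and to handling of cells, had that order in 20 of 22 cases. Their median, relative to the WT mean, was 0.00, 0.32 and -0.37 on the WT arrays and -0.96, 0.28 and -0.30 on the KO arrays. Btg2 measured 3.45, 3.69 and 3.47 in WT and 2.88, 3.72 and 3.37 in KO, and is itself known as an immediate early gene. Plk3 measured 1.29, 1.91 and 1.24 in WT and 0.94, 2.0 and 1.39 in KO. Both were lowest on KO replicate 1, the array with the lowest immediate early median. The part of the immediate early response in these values was not tested.

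The 3 genes of dividing cells followed another order. Gtse1 measured -2.03, -2.35 and -1.58 in WT, Psrc1 -0.45, -0.91 and -0.45, and Ckap2 -0.78, -1.44 and -0.77, so that each was lowest on WT replicate 2. On the KO arrays Gtse1 measured -1.94, -2.07 and -1.84, Psrc1 -0.58, -0.72 and -0.30, and Ckap2 -1.21, -1.27 and -1.15. All 18 measured mitosis genes, such as Mki67 and Top2a, were likewise lowest on WT replicate 2 among the WT arrays. So were 9 of the 30 p53 genes (30.0%) and 34.3% of all features, so that this was not particular to these 3. The median of the mitosis genes relative to the WT mean was 0.16, -0.43 and 0.27 in WT and 0.16, -0.14 and 0.04 in KO. The part of cell cycle activity in the values of these 3 genes was not tested.

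**Figure D4:**
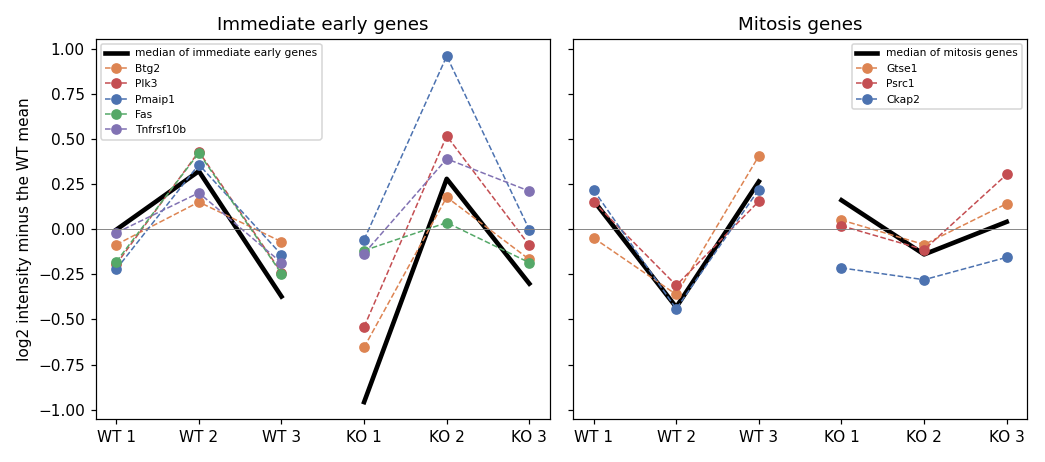
Log2 intensity minus the WT mean on each array, for the median of 22 immediate early genes with 5 p53 genes (left) and for the median of 18 mitosis genes with 3 p53 genes (right). Lines join arrays of a genotype for legibility only. On the left every series peaks on replicate 2 in both genotypes, and on the right every series is lowest on WT replicate 2. The p53 genes shown were picked after their values had been seen, so the shared order is not a test.

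The wider p53 pathway was read from further lists. Of 32 other p53 pathway genes, 28 were tested and 0 passed (limma, adjusted p from 0.376 to 0.925), with 2 at an unadjusted p under 0.05, both with higher values in KO, where 7.19% of all features had such values. These were Trp63, a relative of p53, which measured 3.55, 3.81 and 3.79 in WT and 4.13, 3.92 and 4.04 in KO (0.31 ± 0.11 SE), and Zfp365, with 0.69 ± 0.29 SE, which was well above background on 2 of 3 WT arrays and so passed the filter through KO alone, the genotype with the higher values. The median difference of the 28 was -0.08. Cdkn1a, the cyclin-dependent kinase inhibitor p21 and the classical arrest target, measured 1.58, 1.90 and 1.37 in WT and 1.04, 2.22 and 2.19 in KO. Its KO arrays lay on either side of all WT arrays, and the difference was 0.20 ± 0.33 SE (limma adjusted p = 0.802). Bax, the pore-forming death gene, differed by -0.08 ± 0.11 SE.

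Of 16 genes of DNA damage kinases and sensors, which act upstream of p53, 14 were tested and 0 passed (limma, adjusted p from 0.363 to 0.976). At an unadjusted p under 0.05 there were 2, both with lower values in KO, where 5.0% of all features had such values. Prkdc, the catalytic subunit of the DNA-dependent protein kinase, measured 0.33, 0.28 and 0.47 in WT and -0.13, 0.18 and -0.09 in KO, with every KO array below every WT array (-0.37 ± 0.11 SE, limma adjusted p = 0.363). Chek2, the checkpoint kinase that phosphorylates p53, measured -0.65, -0.98 and -0.77 in WT and -1.08, -1.0 and -1.15 in KO (-0.28 ± 0.11 SE, limma adjusted p = 0.404). Atm differed by -0.19 ± 0.14 SE. The KO arrays lay wholly below the WT arrays for 4 of the 14, against 9.67% of all features. The median of the list was -0.15, with 12 of 14 values below 0, against -0.01 and 10016 of 19611 over all features. Of 22 tested immediate early genes 0 passed (limma, adjusted p from 0.362 to 0.983), with 2 lower in value at an unadjusted p under 0.05 (against the same 5.0%), Dusp1 (-0.38 ± 0.15 SE) and Dusp2 (-0.30 ± 0.08 SE), and a median of -0.36. Of 18 tested mitosis genes 0 passed (limma, adjusted p from 0.427 to 0.988), with 0 at an unadjusted p under 0.05 and a median of 0.02.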

How the data were processed

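RNA of sorted cells was labelled with Cy3 and hybridised to 1-colour Agilent arrays, 1 per sample, per the labels' protocols. Spots were read by Feature Extraction software of Agilent (version 10.7.3.1 in the file headers) on a design annotated to mouse build mm9. The deposited processed signal is an intensity on a linear scale, corrected for background and for trends within the array; per the file headers, arrays were not scaled to each other. The authors' deposited value table holds a linear signal that is this intensity over a constant of the array (304 to 368), with medians from 0.0638 to 0.075; it was used as an alternative.

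Control spots and the 92 to 155 outlier spots per array were left out, no spot was saturated, and 52.3% to 53.4% of spots were well above background. Spots of a probe were averaged, log2 values were scaled to the 75th percentile over probes, and a gene was read by its probe with the highest mean. Features had to be well above background on every array of WT, of KO or of both, and were fitted with limma 3.58.1 in R 4.3.3, KO minus WT without covariates. The fit was tested on simulated data. The number of arrays limits the precision.

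The members, roles and lists were chosen with earlier results of these data known. All members are accounted for; values per array are given for those with an unadjusted p under 0.05, for Trp53, Mdm2, Mdm4, Ccng1, Bbc3, Pmaip1 and Gadd45a, and for others singled out after their values were seen (Plk2, Ddb2, Btg2, Plk3, Gtse1, Psrc1, Ckap2, Polk, Cdkn1a). Pathway genes are named at an unadjusted p under 0.05; Bax, Atm and Cdkn1a are named as well. Alternatives were other scalings and background correction, the authors' table, other filters, the slide, the replicate number as a block, the mean of a gene's probes, and each array left out in turn. Genome annotation of exons was not used here.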

Additional observations from a re-analysis of the deposited data

How the results depend on the processing

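No p53 gene and no p53 probe passed the adjusted limma test under any of the alternatives that allow one. Of 480 gene values under 16 alternatives, 39 turned sign. In the alternatives with a test, the values were compared only by direction and side of the threshold, not by the size of a shift. Within slide 2, which allows no test, the size was compared instead. There 7 values kept their direction but moved by more than the replicate SD. The remaining 434 values kept their direction and met these rules. The sign turned in at least 1 alternative for 14 of the 30 genes, of which 2, Btg2 and Pmaip1, had a difference above its SE, and in none for the other 16. When single arrays were dropped, the difference ran from -0.41 to 0.0065 for Btg2, -0.029 to 0.482 for Pmaip1, -0.126 to 0.0716 for Trp53, -0.0638 to 0.020 for Mdm2, -0.315 to 0.216 for Plk3, -0.143 to 0.241 for Gtse1, -0.084 to 0.163 for Psrc1, -0.186 to 0.0049 for Apaf1, -0.211 to 0.125 for Fas, -0.197 to 0.132 for Perp, -0.183 to 0.106 for Phlda3, -0.159 to 0.0218 for Trp53inp1, -0.253 to 0.0621 for Rrm2b and -0.0261 to 0.0414 for Ddb2. Quantile normalization turned Gtse1 (-0.0165), Plk3 (0.0024) and Mdm2 (0.0135), and with normexp it turned Gtse1 (-0.0105) and Mdm2 (0.0178). Within slide 1 Rrm2b was 0.144 and Mdm2 0.0133, and within slide 2 Gtse1 was -0.265, Phlda3 0.163, Plk3 0.151, Fas 0.0613 and Ddb2 -0.0246. With each array left out, the median ran from -0.132 to -0.0258 for all p53 genes, from -0.0858 to -0.0285 for feedback, from -0.203 to 0.0181 for arrest and from -0.19 to 0.0132 for repair genes. Within slide 2 it was -0.0716 for feedback and -0.18 for arrest genes, and within slide 1 it was 0.0209 for repair genes. The cause was not tested. The unadjusted count ran from 1 to 4, with 1 within slide 1, 4 with the slide as a block and 2 with no filter on dim probes. The shares of all features in these settings are not given, so the counts are not set against a background.

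Whether the replicate numbers pair the samples was not settled. Correlations of same-numbered arrays were -0.03, 0.15 and 0.07, within the range of those of unlike numbers, from -0.23 to 0.18. With the replicate number as a block 0 genes passed, 3 had an unadjusted limma p under 0.05 and the median over p53 genes stayed at -0.07. Here too the count of 3 has no share of all features beside it. With 3 arrays a genotype the median SE of the p53 genes was 0.13, and Eda2r and Dram1 had no signal well above background.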
